A study of Mus musculus with 2 samples.

Results

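The genes described here are the peroxisome proliferator-activated receptors (PPARs), the liver X receptors (LXRs), their shared partners the retinoid X receptors (RXRs), and 3 coregulators that bind them. The 10 genes were taken by symbol from 23284 gene symbols. They are the PPAR genes Ppara, Ppard and Pparg, the LXR genes Nr1h2 (LXRβ) and Nr1h3 (LXRα), the RXR genes Rxra and Rxrb, the coactivator genes Ppargc1a (PGC-1α) and Ppargc1b (PGC-1β), and the corepressor gene Ncor1.

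Leukemic stem cells (LSCs) were profiled by RNA-seq from mice with a BCR-ABL-driven form of chronic myeloid leukemia (CML), with 1 library from WT cells and 1 from STAP-1 KO cells. In both groups the donors were C57BL/6J mice, and marrow cells lacking lineage markers and expressing Sca-1 and c-Kit (LSK) were infected with a retrovirus carrying human BCR-ABL and green fluorescent protein (GFP) and transplanted into irradiated congenic recipients. The STAP-1 KO donors carried a targeted disruption of the Stap1 locus, and the mice of the study were 8 to 14 weeks old. GFP+ CD45.2+ LSK cells were sorted 11 days after the first transplantation. The number of mice behind each library is not given in the sources used here. With 1 library per genotype no difference has a replicate check, and no test of the genotype was possible.

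PPARs and LXRs are ligand-activated transcription factors that bind DNA as heterodimers with an RXR. PPARs respond to fatty acids and their derivatives and LXRs to oxysterols, and their targets serve lipid oxidation, lipid storage and cholesterol export. Without ligand the receptors can hold corepressors such as NCoR1, which recruits histone deacetylase, whereas ligand favors coactivators, among them the PGC-1 proteins that also drive mitochondrial biogenesis. PPARγ is of interest in CML because its agonist pioglitazone has been studied as a means to reduce LSCs.

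Values are FPKM as deposited, a read density per kilobase of transcript, scaled to the size of the library, so that levels can be compared between genes per length. Estimated reads were derived from the steps between low FPKM values, which gave an effective depth of 7500000 reads in WT and of 10470000 reads in STAP-1 KO. All intervals are 95% exact intervals on these estimated reads. They cover counting error only, not the spread between mice or library preparations. A gene was called when it differed at least 2-fold and reached 0.1 FPKM in each library, and log2 ratios were taken with the STAP-1 KO value on top after 0.1 FPKM was added to both values. Adding it makes the change of weakly expressed genes look smaller.

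The targeted gene Stap1 had 62.0 FPKM in WT cells and 0.309 FPKM in STAP-1 KO cells. The libraries also differed in markers of blood cell types. Of all genes that could be compared, 22.9% were called lower and 12.3% higher, the background for the shares given here. Of 4 genes listed as sorting antigens 3 were called lower (75%) and none higher, and the 4 summed to 1141 and 368 FPKM. Kit, among those called lower, had 468 and 30.1 FPKM. All 12 mast cell and basophil markers were above 0 in WT and 11 in STAP-1 KO. The 11 that could be compared were all called lower (100%). The 12 markers summed to 56854 and 5595 FPKM, with Cpa3 highest. Of 9 primary granule markers 7 were called higher (77.8%) and 1 lower (11.1%), and they summed to 2584 and 5702 FPKM. Mpo had 248 and 1973 FPKM, and Serpinb1a, the marker called lower and the highest in WT cells, had 1549 and 232 FPKM. Among the other marker lists, all but the erythroid list held calls in both directions. Of 15 monocyte and macrophage markers 11 could be compared. Of these, 1 was called higher (Csf1r, 9.09%), 4 lower (36.4%) and 6 stayed below the cut-off. The 15 markers had sums of 185.7 and 59.4 FPKM, of which Cd68 gave 95.7 and 26.3 FPKM. Of 8 eosinophil markers 6 could be compared, and 3 were called higher (50%) and 2 lower (33.3%). The 8 markers had sums of 39.0 and 90.5 FPKM, of which Prg2 gave 2.12 and 61.7 FPKM. Of 6 erythroid markers 2 were called lower (33.3%) and none higher, with sums of 664 and 374 FPKM and Car1 with the highest mean. Of 6 megakaryocyte markers 1 was called higher (16.7%) and 2 lower (33.3%), with sums of 216 and 137 FPKM and Itga2b with the highest mean. Of 6 lineage antigens 4 could be compared, and 1 was called higher (Ly6c2, 25%) and 1 lower (25%). The 6 antigens had sums of 23.5 and 101 FPKM, and Cd8b1 was at 0 in both. The part of these differences in the results below was not tested. In sorted bulk cells, fewer cells of a type and less RNA per cell cannot be told apart.

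Of the 10 genes, 9 had at least 0.1 FPKM in both libraries. Rxra and Ppargc1a were called lower in the STAP-1 KO library and Nr1h3 was called higher, while 6 genes stayed below the cut-off. With a floor of 1 FPKM in both libraries none of the 3 calls was made, since each gene has a value under that floor. Among all 12507 genes that could be compared, 22.9% were called lower, 12.3% higher and 35.2% in either direction. The shares among the 9 genes, 22.2% lower and 11.1% higher, lay near these backgrounds. For the 7 genes whose mean reached 1 FPKM, the median log2 ratio was -0.29, against -0.04 over all 10974 genes of that level.

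**Figure D1:**
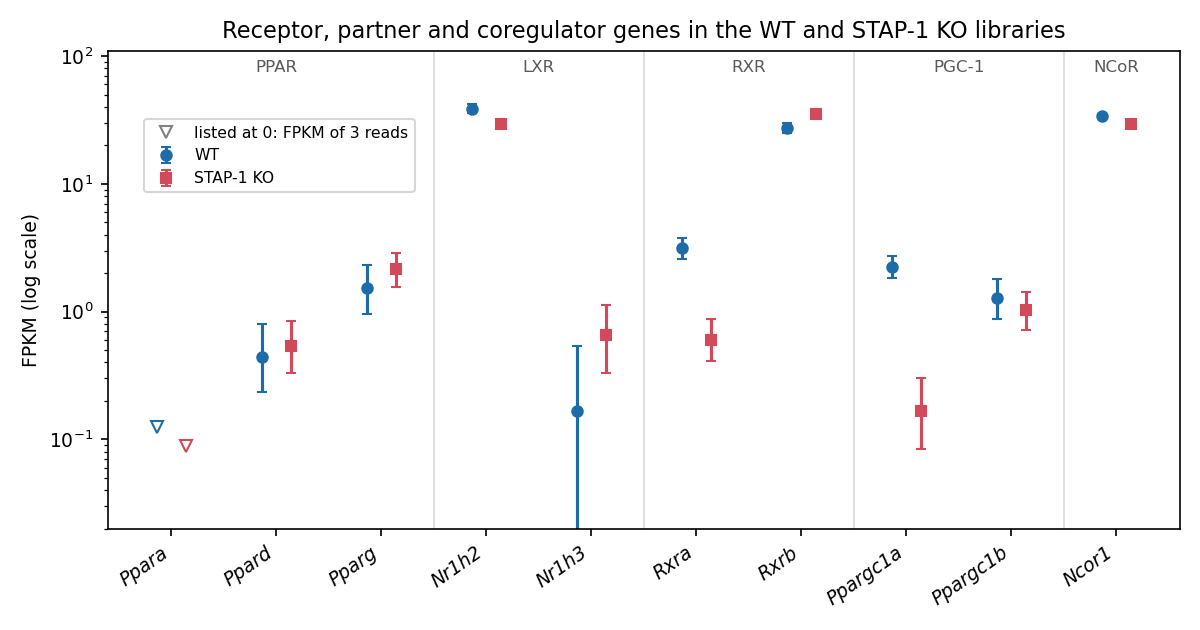
FPKM (log axis) of the 10 genes in the WT (circles) and STAP-1 KO (squares) library, with 95% exact Poisson intervals of the estimated reads (counting error only). Open triangles stand for Ppara, listed at 0 in both libraries, and mark the FPKM that 3 reads would give; the intervals of the libraries are apart for Nr1h2, Rxrb, Ncor1, Rxra and Ppargc1a, and only the last pair differ by 2-fold or more.

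Nr1h2, Ncor1 and Rxrb formed the upper level of the set in both libraries, between 27.1 and 38.8 FPKM. The other genes lay at 3.14 FPKM or below. In the WT library Rxrb stood 8.65-fold (7.0 to 10.7) above the next gene, Rxra. In the STAP-1 KO library Ncor1 stood 13.7-fold (10.2 to 19) above the next gene, Pparg. The genes thus fell into a high group of 3 and a low group, whose values rest on far fewer reads. In the WT library the order below the upper group was Rxra, Ppargc1a, Pparg, Ppargc1b, Ppard and Nr1h3. Ppargc1a and Pparg, Pparg and Ppargc1b, and Ppard and Nr1h3 were not apart beyond counting error. In the STAP-1 KO library the order was Pparg, Ppargc1b, Nr1h3, Rxra, Ppard and Ppargc1a. Here Ppargc1b and Nr1h3, Nr1h3 and Rxra, Rxra and Ppard, and Nr1h2 and Ncor1 were not apart. Ppargc1a was below Ppard beyond counting error, as the lowest gene above 0.

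Among the PPAR genes, Pparg was the most abundant. Pparg, which encodes the receptor for pioglitazone and the regulator of fat cell formation, is a plus-strand gene of chromosome 6 (GRCm38, from 115360951 to 115490399). It had 1.54 FPKM (0.958 to 2.31) in WT cells and 2.15 FPKM in STAP-1 KO cells (1.55 to 2.88), about 22.1 and 43.1 estimated reads. The ratio of 1.40 had an interval from 0.819 to 2.46, so that neither equality nor a difference of about 2-fold could be separated by counting alone. Ppard (chromosome 17, from 28232700 to 28301474, plus strand), the widely expressed PPAR, had 0.443 FPKM (0.235 to 0.794) and 0.540 FPKM (0.331 to 0.838). These rest on about 11.7 and 19.9 estimated reads, and the interval of the ratio of 1.22 ran from 0.556 to 2.68. Pparg exceeded Ppard 3.47-fold (1.59 to 7.46) in WT cells and 3.98-fold (2.27 to 7.08) in STAP-1 KO cells, so that the order of both receptors was the same in both genotypes.

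Ppara (chromosome 15, from 85734983 to 85802819, plus strand), the main PPAR of liver fatty acid oxidation, was listed at 0 FPKM in both libraries. For its longest transcript of 3413 bases, 3 reads would have given 0.125 FPKM in WT cells and 0.0893 FPKM in STAP-1 KO cells. Some ribosomal protein genes were also listed at 0 (5 of 73 in WT and 2 of 73 in STAP-1 KO), so that a value of 0 in these files need not mean that no transcript was present. The PPAR genes together summed to 1.98 and 2.69 FPKM.

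The LXR genes were carried almost wholly by Nr1h2. Nr1h2 (chromosome 7, from 44549616 to 44553951, minus strand), the broadly expressed LXR, had 38.8 FPKM (35.6 to 42.3) in WT cells and 29.6 FPKM (27.2 to 32.2) in STAP-1 KO cells. It was 1.31-fold lower (1.16 to 1.48), beyond counting error and below the cut-off. It made up 99.6% of the LXR FPKM in WT cells and 97.8% in STAP-1 KO cells.

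Nr1h3 (chromosome 2, from 91184061 to 91202834, minus strand), the LXR of liver, fat and macrophages, had 0.167 FPKM (0.0182 to 0.541) and 0.659 FPKM (0.333 to 1.13). Its WT value corresponds to about 2.23 estimated reads, below the limit of 3 reads (0.225 FPKM) used here, and its STAP-1 KO value to about 12.3. The ratio of 3.94 passed the cut-off, but its interval from 0.957 to 39.5 included 1. The call therefore rested on the lowest value above 0 in the set and was not separable from counting error. The log2 ratio of 1.51 became 0.51 at a pseudocount of 1 FPKM.

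The RXR genes differed in direction. Rxrb (chromosome 17, from 34031812 to 34038399, plus strand) had 27.1 FPKM (24.8 to 29.7) in WT cells and 34.9 FPKM (32.6 to 37.3) in STAP-1 KO cells. Its ratio of 1.28 (1.15 to 1.44) exceeded counting error and stayed below the cut-off. Rxra (chromosome 2, from 27676440 to 27762957, plus strand), the RXR best known from myeloid cells and liver, had 3.14 FPKM (2.59 to 3.79) and 0.604 FPKM (0.411 to 0.870), about 110.6 and 29.7 estimated reads. It fell 5.19-fold, with an interval from 3.42 to 8.01, and its log2 ratio of -2.20 became -1.37 at a pseudocount of 1 FPKM. When the shortest transcript paired with a RefSeq mRNA was used for the read estimate, the interval widened to 2.63 to 11.2. With the shortest annotated coding transcript, the reads would be 9.93 and 2.67. Rxrb exceeded Rxra 8.65-fold in WT cells and 57.7-fold (39.8 to 85.3) in STAP-1 KO cells, and this within-library ratio does not depend on how the libraries were scaled. Its change is not free of the trend with transcript length described below. Genes of the length of Rxrb had a median log2 ratio of 0.16, and those of the length of Rxra -0.47. Because Rxrb was so much higher, the sum of both genes differed little, at 30.3 and 35.5 FPKM, and Rxrb made up 89.6% and 98.3% of it.

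The PGC-1 coactivators also differed from each other. Ppargc1a (chromosome 5, from 51454250 to 51567726, minus strand), the inducible regulator of mitochondrial biogenesis and gluconeogenesis, had 2.24 FPKM (1.83 to 2.71) in WT cells and 0.168 FPKM (0.0838 to 0.30) in STAP-1 KO cells. These values correspond to about 105.1 and 11 estimated reads. With the shortest annotated coding transcript as the length, they would be 4.73 and 0.496 reads. The fall of 13.3-fold (7.15 to 27.5) was the largest fold among the called genes of the set, and its log2 ratio of -3.13 became -1.47 at a pseudocount of 1 FPKM. Ppargc1b on chromosome 18, its constitutive relative, had 1.28 FPKM (0.878 to 1.79) and 1.03 FPKM (0.721 to 1.41), and the interval of its ratio of 0.803 ran from 0.489 to 1.33. Ppargc1a was thus 1.75-fold (1.18 to 2.68) above Ppargc1b in the WT library, whereas Ppargc1b was 6.10-fold (3.05 to 13.3) above Ppargc1a in the STAP-1 KO library. Their order reversed between the libraries, with both orders beyond counting error. The related coactivator Pprc1, which was higher than either, had 13.7 and 9.43 FPKM.

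Ncor1 (chromosome 11, from 62316426 to 62458541, minus strand), the scaffold of the corepressor complex with histone deacetylase 3, had 33.9 FPKM (32.5 to 35.3) and 29.4 FPKM (28.3 to 30.5). It was 1.15-fold lower (1.09 to 1.22), a small difference beyond counting error. Against Ppargc1a, Ncor1 stood at 15.2-fold (12.5 to 18.6) in WT cells and 175.1-fold (97.7 to 351) in STAP-1 KO cells. Against Ppargc1b it stood at 26.6-fold (18.9 to 38.7) and 28.7-fold (20.8 to 40.9), and these intervals overlapped. Annotated exons of other genes covered at most 1.35% of the exonic bases of any of the 10 genes.

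To show the sequence in front of the pair of genes that were called lower, the bases before their RefSeq transcription starts are given 5′ to 3′ on the strand of each gene. RefSeq gives 2 starts for Rxra, with windows at chr2:27676951-27677200 and chr2:27709042-27709291 on the plus strand, and 1 for Ppargc1a, at chr5:51567727-51567975 on the minus strand, in GRCm38. Which Rxra start these cells used cannot be told from one value per gene. Capitals mark GC boxes (GGGCGG), the core of the cyclic AMP response element (TGACG) and the nuclear receptor motif AGGTCA, each on either strand.
Rxra, upstream start: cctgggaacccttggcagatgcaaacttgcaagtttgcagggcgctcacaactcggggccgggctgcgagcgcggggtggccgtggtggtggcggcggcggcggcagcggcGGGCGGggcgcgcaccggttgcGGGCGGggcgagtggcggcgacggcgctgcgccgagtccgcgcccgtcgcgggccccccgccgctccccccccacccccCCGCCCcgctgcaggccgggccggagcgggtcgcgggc
Rxra, downstream start: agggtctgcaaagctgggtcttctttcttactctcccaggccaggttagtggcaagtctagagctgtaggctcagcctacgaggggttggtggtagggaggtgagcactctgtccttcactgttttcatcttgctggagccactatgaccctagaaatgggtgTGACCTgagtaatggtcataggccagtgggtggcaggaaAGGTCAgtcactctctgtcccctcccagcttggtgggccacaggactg
Ppargc1a: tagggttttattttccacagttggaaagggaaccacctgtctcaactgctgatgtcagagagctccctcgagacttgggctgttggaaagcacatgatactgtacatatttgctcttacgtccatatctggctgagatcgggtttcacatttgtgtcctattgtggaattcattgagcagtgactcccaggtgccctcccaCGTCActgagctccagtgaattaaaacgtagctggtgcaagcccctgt

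The window of the upstream Rxra start held 3 GC boxes, which began 139, 117 and 38 bases before the start, and no TGACG or AGGTCA. The window of the downstream start held 2 AGGTCA motifs, 87 and 48 bases before the start, and neither of the other motifs. The Ppargc1a window held 1 TGACG, on the opposite strand, 49 bases before the start, and neither of the others. This distance counts the base next to the start, which an annotated exon covers and the printed sequence leaves out. In the 250 bases before each of 32851 RefSeq starts, 32.7% held GGGCGG and 17.8% held TGACG. Of the 15 windows found for 9 of the 10 genes, 8 held GGGCGG and 3 held TGACG. The STAT-type palindrome TTCNNNGAA, searched because STAT5 is the factor examined in the study, was in none of the 15 windows and in 7.02% of all. AGGTCA was in 3 of the 15 and in 14% of all, and the CCAAT box in 3 of the 15 and in 33.8% of all. A match describes these letters only and is not evidence of binding.

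The ratio of the libraries varied with transcript length, and the 10 genes were therefore set beside genes of like length. Genes averaging 1 FPKM or more were divided into 20 bins by their longest annotated transcript. The median log2 ratio was 0.42 in the bin that holds Nr1h2 and Nr1h3 (1857 to 2081 bases), and -1.0 in the bin of the longest transcripts, which holds Ncor1 (9037 bases). Ncor1 had a log2 ratio of -0.21, so that it stood 0.80 above the median of its bin. Nr1h2, with a log2 ratio of -0.39, was at -0.81 relative to its bin. Thus the largest coregulator and the main LXR had similar ratios as deposited and lay on opposite sides of genes of their length.

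Rxra (4905 bases) and Ppargc1a (6464 bases) lay in bins with medians of -0.47 and -0.95. Their log2 ratios were -2.20 and -3.13, and -1.73 and -2.18 relative to those medians. In the bin of Ppargc1a 48.7% of the genes were called lower, and in that of Rxra 29.9%. Both genes remained past a 2-fold difference relative to genes of like length. Relative to their bins, Rxrb was at 0.20, Pparg at 0.16, Ppard at 0.29 and Ppargc1b at -0.16.

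**Figure D2:**
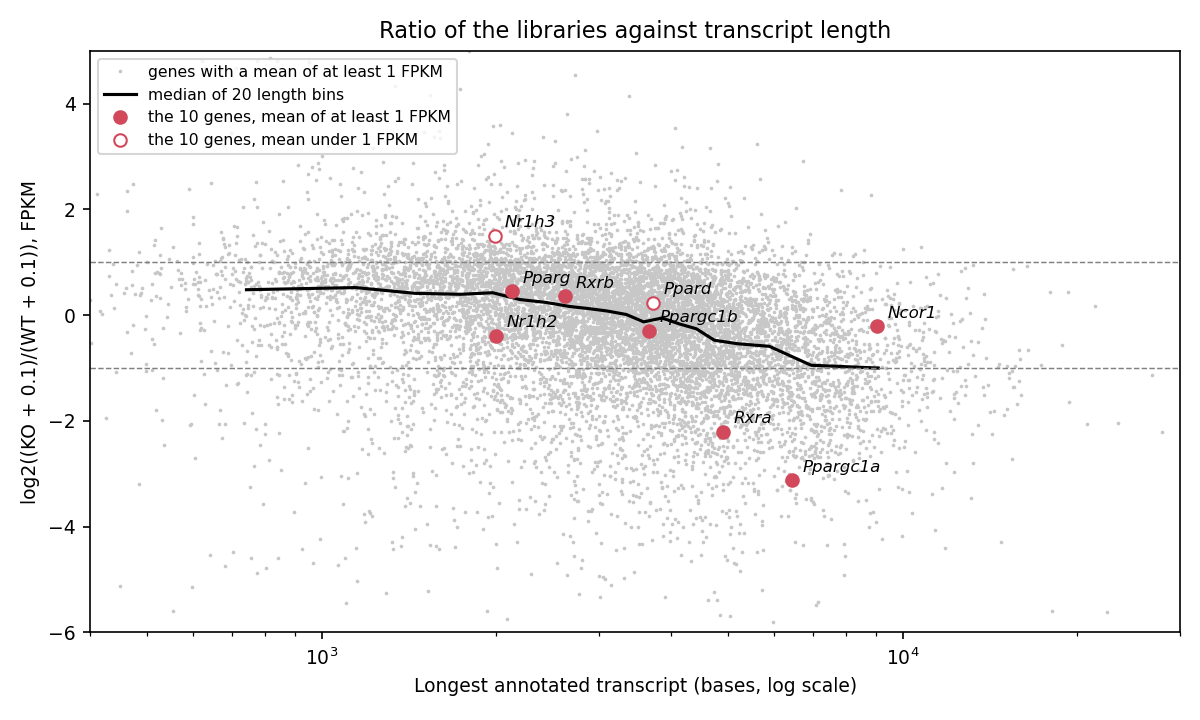
Log2 ratio of the libraries (pseudocount 0.1 FPKM) against the longest annotated transcript (log axis); grey points are genes averaging 1 FPKM or more, the black line joins the medians of 20 length bins and the dashed lines mark a log2 ratio of 1 and -1. Rxra and Ppargc1a lie far below the line, Ncor1 lies 0.80 above it and Nr1h2 at -0.81 relative to it; open circles are genes with a mean under 1 FPKM.

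The receptors were next placed among 48 nuclear receptor genes. Of these, 17 reached 1 FPKM in WT and 17 in STAP-1 KO, and 16 were at 0 in both. Nr1h2 and Rxrb ranked 2 and 4 in WT and 3 and 2 in STAP-1 KO. Nr4a1, an immediate-early receptor that needs no ligand, ranked 1 in both, with 86.6 and 40.4 FPKM. Rxra moved from rank 13 to rank 20, and Pparg from 16 to 14.

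Rxrg and the other partners of RXR were examined next. Of the 6 that could be compared among 10 listed, none was called higher, against 12.3% of all genes. Called lower were 3 (Rara, Rarg and Rxrg), 50% against 22.9% of all genes. With a floor of 1 FPKM in both libraries 1 remained, since Rarg and Rxrg lie under it in STAP-1 KO cells. Rara, the retinoic acid receptor of granulocyte differentiation, had 29.9 and 2.52 FPKM, a fall of 11.9-fold (9.44 to 15.0). Rarg, which acts in stem cell maintenance, had 4.58 and 0.587 FPKM, a fall of 7.81-fold (4.57 to 13.8). Rxrg, the third RXR gene, named here after its values were seen, had 0.624 and 0.130 FPKM, about 8.91 and 2.59 estimated reads, and the interval of its fold ran from 1.05 to 24.1. The 3 genes below the cut-off, likewise named afterwards, were the thyroid hormone receptor gene Thra, with 2.55 and 4.17 FPKM, the vitamin D receptor gene Vdr, with 1.93 and 0.968 FPKM, and the bile acid receptor gene Nr1h4, with 0.302 and 0.216 FPKM. The median of the 4 genes averaging 1 FPKM or more was -1.85.

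Of the 13 other orphan and steroid receptors that could be compared, 4 were called lower (30.8%, against 22.9% of all genes; Nr4a1, Nr3c1, Esrra and Nr6a1) and 3 higher (23.1%, against 12.3%; Nr0b2, Nr1d1 and Rora), with a median of -0.42 over 11 genes. With a floor of 1 FPKM in both libraries none was called higher, and relative to genes of like length the median was 0.06. Nr3c1, the glucocorticoid receptor, had 23.3 and 7.97 FPKM, a log2 ratio of -1.54 that was -0.59 relative to genes of its length, below the cut-off. Nr0b2 (SHP), a receptor without a DNA-binding domain that represses others, had 0.293 and 5.25 FPKM. Its WT value rests on about 2.04 estimated reads, and the ratio of 17.9 had an interval from 4.8 to 154.9, which stayed above 1.

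**Figure D3:**
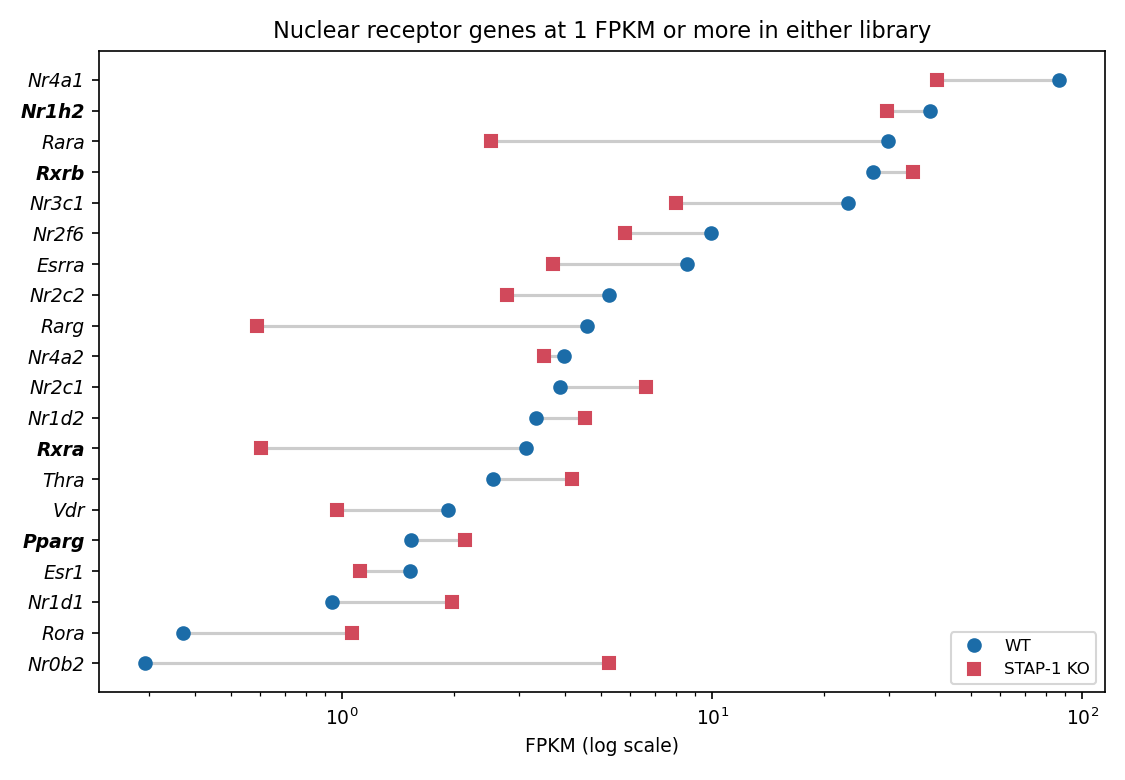
FPKM (log axis) in the WT (circles) and STAP-1 KO (squares) library for the nuclear receptor genes that reached 1 FPKM in either, ordered by the WT value, with grey lines joining the values of a gene and the receptors of the set of 10 in bold. Nr1h2 and Rxrb stay among the highest in both libraries, while Rxra, Rara and Rarg lie to the left of their WT values in the STAP-1 KO library.

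The coregulators beside PGC-1 and NCoR1 were examined as lists. Of 14 corepressor complex genes, all comparable, 3 were called lower (21.4%, against 22.9% of all genes; among them Tbl1xr1 and Rcor1) and 1 higher (7.14%, against 12.3%; Hdac2), with a median log2 ratio of -0.31. Tbl1xr1, a subunit of the NCoR complex, had 24.96 and 8.94 FPKM. Relative to genes of like length 1 of the 3 was lower by at least 2-fold, and Tbl1xr1 was at -0.47 and Rcor1 at -0.46. Hdac2, a histone deacetylase of the Sin3 and NuRD complexes, had 117 and 261 FPKM.

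Of 23 coactivator genes that could be compared, 9 were called lower (39.1%, against 22.9% of all genes) and none higher (against 12.3%), with a median of -0.53 over 22 genes. Of the 24 listed, 1 could not be compared because its WT value of 0.0973 FPKM was just under the floor. Its STAP-1 KO value was 1.18 FPKM. Ncoa3, a coactivator of the p160 family, had 19.6 and 3.25 FPKM, Ep300, a histone acetyltransferase, had 9.04 and 1.86 FPKM, and Lpin1, a phosphatidate phosphatase that also works with PGC-1α, had 25.2 and 5.40 FPKM. Prmt1, an arginine methyltransferase and the most abundant of the list, had 177 and 292 FPKM. Many of these genes have long transcripts. Relative to genes of like length, 6 were lower and 2 (Ncoa7 and Med1) higher by at least 2-fold, and the median was 0.05.

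Of 11 genes of PGC-1 partners and mitochondrial biogenesis, 2 were called higher (18.2%, against 12.3% of all genes; Ssbp1 and Tfam), 1 was called lower (9.09%, against 22.9%; Polg) and 8 stayed below the cut-off, with a median of 0.42. Tfam, which packages mitochondrial DNA and helps to start its transcription, had 13.5 and 30.5 FPKM. Ssbp1, which binds single strands of that DNA, had 22.2 and 64.1 FPKM. Polg, its polymerase, had 17.9 and 6.32 FPKM, a log2 ratio of -1.49 that was -0.49 relative to genes of its length, so that the call ended there, and exons of a gene on the other strand cover 8.57% of its exonic bases. Gabpb1, with the highest mean of both libraries in the list, had 35.5 and 55.8 FPKM.

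Targets of the receptors were described by 2 lists. Of 15 LXR targets that could be compared, 5 were called lower (33.3%, against 22.9% of all genes; Abca1, Abcg1, Srebf1, Scd2 and Fasn). Only Nr1h3 itself was called higher (6.67%, against 12.3% of all genes). That call rests on about 2.23 estimated reads in WT cells, and the interval of its ratio included 1. The median of the LXR targets was -0.82 over 13 genes, and -0.72 relative to genes of like length. Abca1, the cholesterol exporter, had 3.52 and 0.257 FPKM. Scd2, a fatty acid desaturase, had 162.9 and 46.8 FPKM, and Fasn, the fatty acid synthase, had 22.6 and 3.96 FPKM. Lpcat3, which inserts polyunsaturated chains into phospholipids, had the highest mean of both libraries, with 138 and 77.9 FPKM, below the cut-off. Emg1 on the other strand covers 10.2% of its exonic bases.

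Of 31 PPAR targets that could be compared, 5 were called lower (16.1%; among them Me1, Txnip, Slc27a1 and Cd36) and 2 higher (6.45%; Fads2 and Adipoq), and 24 stayed below the cut-off. Both shares were under those of all genes, and the median over 29 genes was -0.03. Me1, the malic enzyme, had 28.8 and 3.26 FPKM, Txnip, the thioredoxin inhibitor, had 109 and 33.9 FPKM, and Fads2, a fatty acid desaturase, had 16.1 and 46.9 FPKM. Exons of a gene on the other strand, at 0.228 and 0 FPKM, cover 19.4% of the exonic bases of Txnip. Ucp2, a mitochondrial carrier with the highest mean of both libraries, had 213 and 134 FPKM. Adipoq rested on 0.130 FPKM in the WT library and was not called with a floor of 1 FPKM.

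Genes of ligand supply and of receptor modification complete the set. Of 17 genes of lipid ligand synthesis and carriage that could be compared, 6 were called lower (35.3%, against 22.9% of all genes) and none higher (against 12.3%), with a median of -0.79. Alox5, the 5-lipoxygenase, had 771 and 152 FPKM, Ptgs2, the inducible cyclooxygenase, had 24.8 and 5.48 FPKM, and Hpgds, a prostaglandin D2 synthase of mast cells and other leukocytes, had 10.1 and 1.82 FPKM. The mast cell markers given above were lower too, and their part in these values was not tested. Of 15 kinases and other modifiers of PPAR and PGC-1, 4 were called lower (26.7%, against 22.9% of all genes; Prkaa2, Fbxw7, Rb1 and Foxo1) and none higher (against 12.3%), with a median of -0.47. Prkaa2, a catalytic subunit of AMP-activated kinase, had 5.34 and 0.131 FPKM, the latter on about 10.7 estimated reads. Fbxw7, a ubiquitin ligase subunit, had 21.7 and 3.69 FPKM. Rb1, the retinoblastoma protein gene, had 54.2 and 10.7 FPKM, and genes on the other strand cover 6.78% and 8.11% of its exonic bases.

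**Figure D4:**
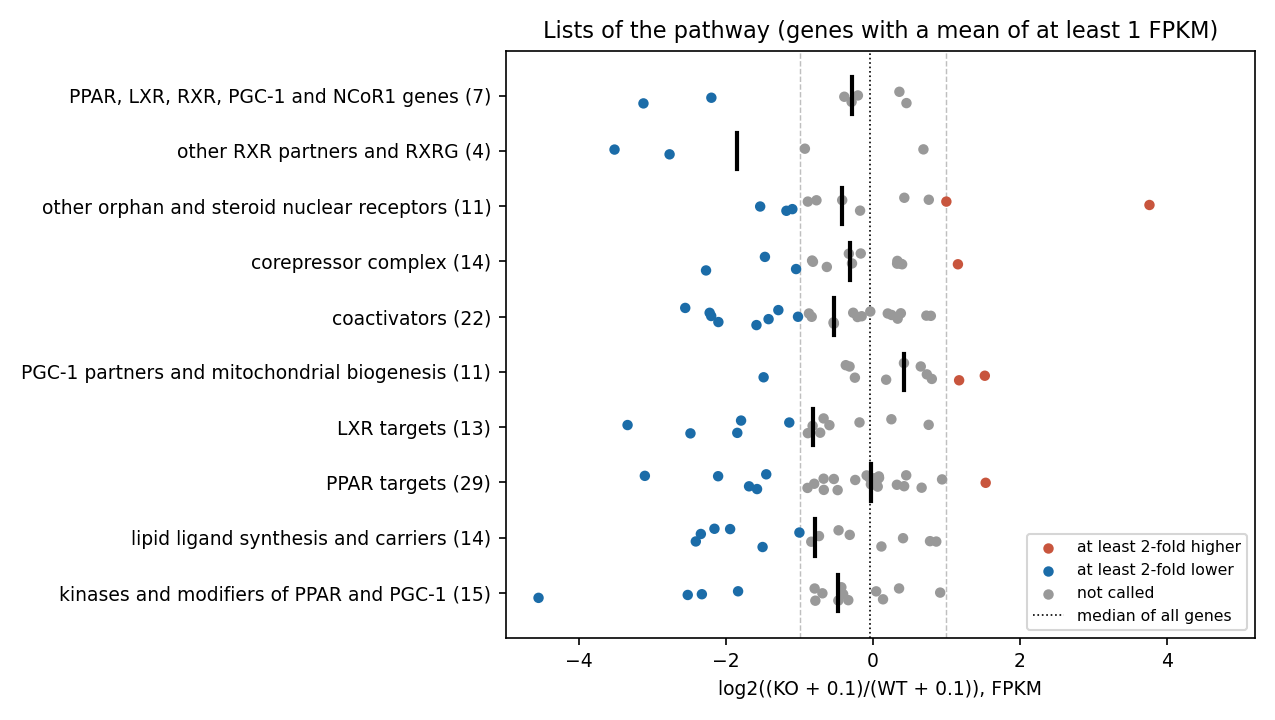
Log2 ratio of the libraries (pseudocount 0.1 FPKM) for each gene averaging 1 FPKM or more in the lists of the pathway, with the number of such genes in brackets; black bars are medians, the dotted line is the median of all genes (-0.04) and dashed lines mark a log2 ratio of 1 and -1. The PPAR target median of -0.03 lies at the dotted line, while the LXR target median is -0.82.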

How the data were processed

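Total RNA of sorted cells was amplified with a SMART-Seq v4 low-input kit, made into Nextera XT libraries and sequenced as single reads of 75 bases. Per the submitters' notes, TopHat2 2.0.13 and Bowtie2 2.2.3 aligned them to mm10 (GRCm38), and the authors deposited FPKM values made with Cuffnorm of Cufflinks 2.2.1 for 23284 symbols. The annotation, the scaling of the libraries and the total reads are not given in the sources used here. The kit does not mark strand.

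The 10 genes and the lists of other pathway genes were chosen with earlier results of these data known. Named genes are the 10, Stap1, the 3 largest changes at a pseudocount of 1 FPKM and the highest mean of each list, and the highest marker of each marker list; other genes of the lists were named after their values were seen. A few genes of the lists are counted but not reported here by name. Symbols were matched to GENCODE M21 (20911 as written, 1901 through an older symbol, 472 not matched), and all 10 genes matched. Promoter windows are from RefSeq (GRCm38.p6).

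Effective depth and a number of bases taken off each transcript were searched together for the pair that made the most low FPKM values of genes with 1 transcript whole reads, within 0.01. The best pair took off 206 bases in each library, fitted apart, and held for 46.2% of 238 WT values and 47.5% of 297 STAP-1 KO values. A depth picked without a search would give 2%, which is lower than a search reaches by chance, and most values were not whole, so that the reads are estimates. The depths can include a scaling by Cuffnorm, and genes with several transcripts have less certain read estimates. Intervals are exact Poisson intervals for a value and Clopper-Pearson intervals for a ratio. Python 3.11.15, numpy 2.4.6, pandas 2.3.3, scipy 1.17.1 and matplotlib 3.10.9 were used. The steps were tested on simulated data.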

Additional observations from a re-analysis of the deposited data

How the results depend on the processing

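With 2 libraries and no replicates, no library could be left out. No paired analysis was possible because each group has 1 library. Of the 10 genes, 2 were called lower and 1 higher. With a floor of 1 FPKM in both libraries 0 were called lower and 0 higher, since Rxra, Ppargc1a and Nr1h3 each have a value under that floor. With a 4-fold cut-off 2 were called lower and 0 higher. No floor, a 1.5-fold cut-off, 3 other scalings, transcript length bins and a minimum of 10 estimated reads gave the same counts. The median log2 ratio, taken over the genes of the set averaging 1 FPKM or more, lay between -0.31 and -0.16 under other pseudocounts, scalings, length or GC bins and minimum means. For single genes, 46 of 54 alternative log2 ratios stayed within the counting interval. Ncor1 ranged from -0.21 to 0.80, turning positive only relative to genes of like length. Rxra ranged from -2.36 to -1.37 and Ppargc1a from -3.66 to -1.47. The shortest annotated coding transcript as the length left under 5 estimated reads for Ppargc1a and under 10 for Rxra in each library. Length bins reduced the coactivators called lower from 9 to 6 and the corepressor genes called lower from 3 to 1, called 2 coactivators higher instead of 0, and reduced the PGC-1 partners called lower from 1 to 0. A floor of 1 FPKM reduced the other RXR partners called lower from 3 to 1, the orphan and steroid receptors called higher from 3 to 0, the LXR targets called higher from 1 to 0 and the PPAR targets called higher from 2 to 1. Scaling to the same total FPKM called 1 gene higher instead of 0 among the ligand genes and among the kinases and modifiers. The GC content bins and the RefSeq transcript lengths were added after seeing the data. Depth limits Ppara, Ppard and Nr1h3, each under 20 estimated reads in both libraries.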
